A study of Mus musculus with 14 samples.

Results

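The 10 genes described here encode the DNA-binding subunits of NF-κB (Nfkb1, Nfkb2, Rel, Rela and Relb) and proteins that hold its activity in check (Nfkbia, Nfkbib, Nfkbie, Nfkbiz and Tnfaip3). They were taken as a fixed list of names and matched by gene identifier, and all 10 were present among the 21761 genes with exon counts and among the 18858 genes with intron counts. The study used bone marrow-derived macrophages of FVB/Hsd mice on the 7th day of differentiation in medium with L929-conditioned supernatant. Retroviruses brought in a short hairpin RNA and puromycin selected the infected cells. The groups compared were Wdr82 knockdown, with 1 library for the hairpin sh1137 and 1 for the hairpin sh830, and a scrambled hairpin, with 2 libraries named scrambled 1 and scrambled 2. All 4 came from untreated cells and from total RNA depleted of ribosomal RNA, made into stranded libraries. The series holds 14 samples, and the other 10 were not analysed here. Wdr82 is a WD-repeat protein that is part of SET1-type histone methyltransferases and of a nuclear PP1 phosphatase complex.

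NF-κB is a family of dimeric transcription factors that macrophages use to answer microbial products and cytokines. In resting cells most dimers are kept in the cytoplasm by IκB proteins, and the IκB kinase complex releases them by marking the IκBs for degradation. Released dimers switch on inflammatory genes together with genes of their own inhibitors and of some subunits, which is how the pathway limits itself.

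The gene exon counts of the libraries totalled 34787556 with sh1137 and 43372731 with sh830, against 40074419 in scrambled 1 and 42635790 in scrambled 2. Introns took 44.2% and 15.2% of exon plus intron counts with sh1137 and sh830, against 40.4% and 14.6% in scrambled 1 and 2. Each group therefore held 1 intron-rich and 1 intron-poor library, and the fits carry a term for this measured split, called the library term below. Wdr82 was at 25.1 and 40.7 counts per 1000000 library counts (CPM) with sh1137 and sh830, against 100 and 144 CPM in scrambled 1 and 2. It fell by 1.91 ± 0.094 on the log2 scale (SE; Benjamini-Hochberg adjusted p = 0.0022 in edgeR's quasi-likelihood F-test; 0.44 if the group term stands alone). Without sh1137 or without scrambled 2, in fits that cannot carry the library term, it missed the threshold (-1.59 and -1.58, edgeR adjusted p = 0.072 and 0.22). All 8 macrophage markers averaged at least 10 CPM. Fcgr1 was at 41.5 and 51.6 CPM with sh1137 and sh830, against 120 and 146 CPM in scrambled 1 and 2. Cd68 was at 342 and 491 CPM with the hairpins, against 654 and 943 CPM in scrambled cells. Itgam was higher with the hairpins, at 1202 and 1167 CPM against 1132 and 1021 CPM in scrambled cells. The groups of Csf1r, Adgre1, Lyz2, Mrc1 and Cd14 overlapped. The endothelial markers Cdh5 and Pecam1 were higher in both hairpin libraries, with Cdh5 at 11.3 and 8.13 CPM with sh1137 and sh830, against 1.37 and 1.05 CPM in scrambled 1 and 2. Pecam1 was at 17.0 and 6.04 CPM with sh1137 and sh830, against 2.20 and 0.878 CPM in scrambled 1 and 2. The other endothelial markers were not higher with the hairpins. Kdr, the most abundant, was at 37.2 and 27.1 CPM with sh1137 and sh830, against 38.1 and 33.7 CPM in scrambled 1 and 2. Tek was at most 0.15 CPM in any library. Among dendritic cell markers Xcr1 was at 4.46 and 3.41 CPM with the hairpins, against 1.59 and 1.20 CPM in scrambled cells. Zbtb46 was at 1.12 and 0.877 CPM with the hairpins, against 0.611 and 0.251 CPM in scrambled cells. Flt3, Ccr7 and Siglech were at most 0.62 CPM in any library, and their groups overlapped. The part of these markers in the results below was not tested. The summed level of 6 fibroblast markers was 1.87 and 110 CPM with sh1137 and sh830, against 1.03 and 33.2 CPM in scrambled 1 and 2, so it was high in the intron-poor libraries and highest with sh830. Neutrophil markers summed to 13.0 and 3.46 CPM with sh1137 and sh830, against 15.2 and 7.15 CPM in scrambled 1 and 2. No label says that the 2 libraries of a group came from separate animals or cultures, so the p-values measure spread between these libraries, which may be technical. With the library term, this is the spread left once the difference between intron-rich and intron-poor libraries is taken out. It has 1 residual degree of freedom per gene. The edgeR fit draws the spread of each gene towards that of all genes and regions tested. The p-values thus rest in large part on spread shared between genes.

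Per length of exon, Nfkbia had the highest level of the 10 genes and Relb the lowest. Nfkbia, which encodes IκBα, the best-known IκB, was at 69.5 and 116 CPM per kb of exon with sh1137 and sh830, against 55.1 and 76.3 in scrambled 1 and 2. All 4 of its values were above every value of the next gene, and 94.6% of the tested genes had a lower mean. Nfkb1 and Rela, whose products form the classical dimer, averaged 32.3 and 31.4 CPM per kb over the 4 libraries, and their ranges overlapped. Nfkb2 averaged 14.1 and lay apart from Rela above it and from Nfkbiz below it. The 6 lower genes had means of 10.2 for Nfkbiz, 9.86 for Nfkbib, 9.35 for Rel, 7.79 for Nfkbie, 6.59 for Tnfaip3 and 6.57 for Relb. No neighbouring pair among these 6 was separated beyond the spread of the 4 libraries. Relb was above 47.2% of the tested genes, and each member had at least 619 exon counts in every library.

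**Figure D1:**
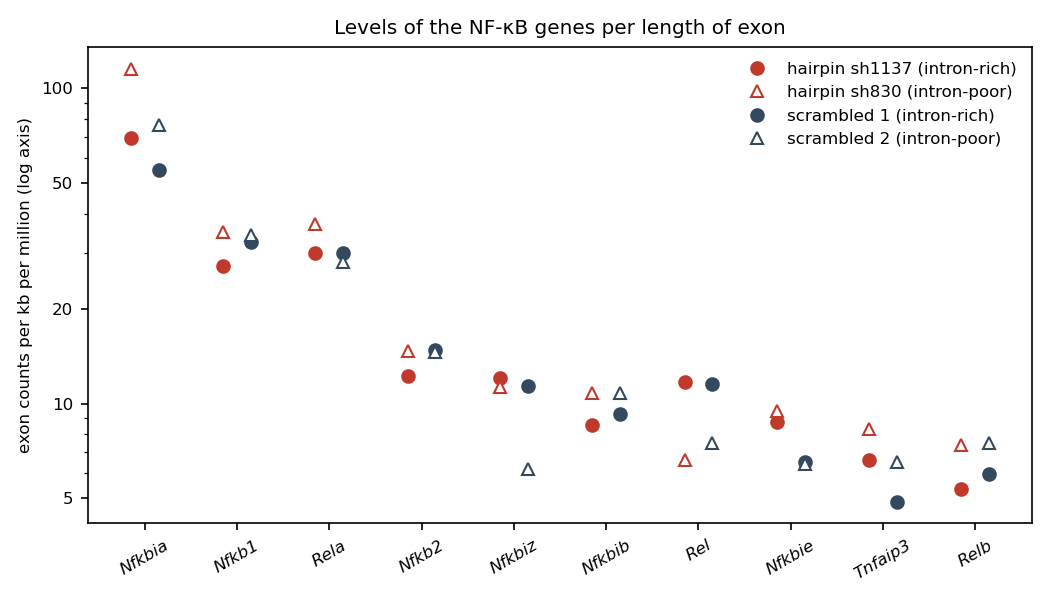
Exon counts per kb of exon, in CPM per kb (log axis), for the 10 genes, ordered by mean, with 1 point per library (knockdown left, scrambled right, filled for intron-rich and open for intron-poor libraries). Nfkbia lies between 55.1 and 116 and above all other genes, and the 6 genes on the right overlap with their neighbours.

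Whether Wdr82 knockdown moved these genes was asked first of the exon counts, which stand mostly for mature RNA. A single gene, the inhibitor gene Nfkbia, passed the test, while 4 of the 5 inhibitor genes and 1 of the 5 subunit genes had a positive log2 fold change. Of the 5 inhibitor genes 1 rose and 0 fell, with a median log2 fold change of 0.47 and a range of -0.05 to 0.49. Of the 5 subunit genes 0 rose and 0 fell, with a median of -0.09 and a range of -0.13 to 0.21. Over all 13884 genes tested, 6.06% rose and 7.79% fell and the median was -0.01, so 1 call among 10 members is near the background. Positive log2 fold changes were found in 5 of the 10 members and in 6737 of the 13884 genes, so the signs of the members together are near the background too. In bulk RNA, fewer cells of a type and less RNA per cell cannot be told apart, and this holds for every difference below.

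Nfkbia (gene identifier 18035; mm9 chr12:56590396-56593634, minus strand) was at 110 and 182 CPM with sh1137 and sh830, against 87.0 and 120 CPM in scrambled 1 and 2. Both hairpin libraries were above the scrambled library of their own intron class, but the groups overlapped, since sh1137 lay below scrambled 2. The group means were 146 ± 51.4 CPM in knockdown and 104 ± 23.7 CPM in scrambled cells (SD, n = 2 each). Nfkbia rose by 0.47 ± 0.10 on the log2 scale, 1.38-fold (SE; Benjamini-Hochberg adjusted p = 0.036 in edgeR's quasi-likelihood F-test). It also passed in DESeq2 with the library term (0.40, adjusted p = 0.030). The call rests on the library term: with the group term alone the estimate was 0.49 and the edgeR adjusted p was 0.93. Leaving out 1 library at a time, which cannot carry that term, gave 0.81 without sh1137, 0.09 without sh830, 0.27 without scrambled 1 and 0.77 without scrambled 2 (edgeR adjusted p from 0.85 to 1.0). Between the intron classes Nfkbia also differed, and the part of the fibroblast markers, which were highest in the same library as Nfkbia, was not tested.

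Nfkbie and Tnfaip3 were the 2 inhibitor genes with both knockdown libraries above both scrambled libraries, and both missed the threshold. Nfkbie (18037; mm9 chr17:45692665-45700117, plus strand), which encodes IκBε, an inhibitor that is itself induced by NF-κB, was at 21.1 and 23.0 CPM with sh1137 and sh830, against 15.8 and 15.5 CPM in scrambled 1 and 2. Its replicates lay close together, at 22.1 ± 1.34 CPM in knockdown and 15.65 ± 0.173 CPM in scrambled cells (SD, n = 2 each). The log2 fold change of 0.49 ± 0.12 had an adjusted p of 0.0505 in edgeR, 0.20 in DESeq2 and 0.81 in edgeR with the group term alone. It stayed between 0.44 and 0.55 whichever library was left out. Tnfaip3 (21929; mm9 chr10:18720717-18735216, minus strand) encodes a ubiquitin-editing enzyme that dampens signalling upstream of the IκB kinase. Its level was 30.5 and 38.2 CPM with sh1137 and sh830, against 22.4 and 30.1 CPM in scrambled 1 and 2. The lower knockdown value and the higher scrambled value of Tnfaip3 nearly touched, and within each intron class the hairpin library was the higher one. Its log2 fold change was 0.39 ± 0.10 (edgeR adjusted p = 0.055; 0.94 with the group term alone). Together with Rela, 3 of the 10 members had both knockdown libraries above both scrambled ones and 0 had both below, beside 15.7% of all tested genes in each direction.

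Nfkbiz and Nfkbib did not pass either. Nfkbiz (80859; mm9 chr16:55811490-55838754, minus strand) encodes IκBζ, a nuclear IκB that also acts as a co-activator of late inflammatory genes. It was at 46.6 and 43.8 CPM with sh1137 and sh830, against 44.0 and 24.1 CPM in scrambled 1 and 2. Of these libraries 3 were alike and scrambled 2 stood low. The log2 fold change was 0.47 ± 0.19 (edgeR adjusted p = 0.15), made of 0.08 between the intron-rich libraries and 0.87 between the intron-poor ones, and it was 0.07 without scrambled 2. Nfkbib (18036; mm9 chr7:29543270-29551543, minus strand), which encodes IκBβ, was at 17.1 and 21.7 CPM with sh1137 and sh830, against 18.5 and 21.6 CPM in scrambled 1 and 2. The values of Nfkbib paired by intron class and not by hairpin, and its log2 fold change was -0.05 ± 0.12 (edgeR adjusted p = 0.78). Nfkbib overlaps the gene with identifier 624918 on the other strand, which had 9 and 5 counts with sh1137 and sh830, against 2 and 0 in scrambled 1 and 2.

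**Figure D2:**
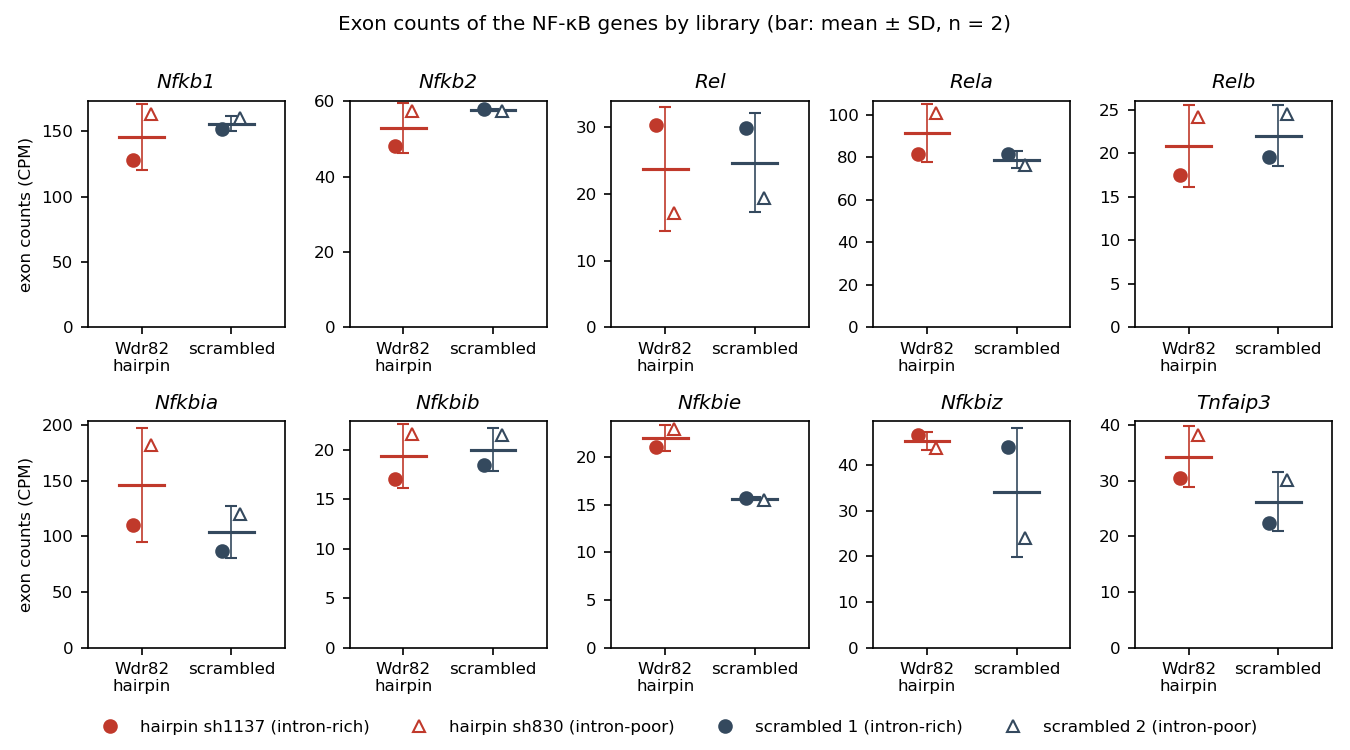
Exon counts of each gene in CPM (top row subunits, bottom row inhibitors), with 1 point per library and the mean ± SD of each group (n = 2). Nfkbie has the clearest gap between groups, at 21.1 and 23.0 CPM with the Wdr82 hairpins against 15.8 and 15.5 CPM in scrambled cells, whereas the subunit genes overlap apart from a narrow gap in Rela.

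The promoter windows of the inhibitor genes, from 250 bases before to 50 after the gene start, are shown because Nfkbia, Nfkbie and Tnfaip3 had both knockdown values above the scrambled value of their class, as did Nfkbiz, and Nfkbib did not. They come from RefSeq (GRCm38.p6), where 7 of the 10 members matched an entry, with 10 windows in all; Nfkb1, Relb and Nfkbiz had none. NF-κB dimers bind sites of the general form GGG, then any 5 bases, then CC. Capitals mark every match to these letters on either strand, with overlapping matches merged, and each sequence runs 5′ to 3′ on the strand of the gene: Nfkbia at chr12:55492598-55492897 (minus), Nfkbie at chr17:45555450-45555749 (plus), the first Tnfaip3 window at chr10:19015361-19015660 (minus) and Nfkbib at chr7:28766595-28766894 (minus).
Nfkbia: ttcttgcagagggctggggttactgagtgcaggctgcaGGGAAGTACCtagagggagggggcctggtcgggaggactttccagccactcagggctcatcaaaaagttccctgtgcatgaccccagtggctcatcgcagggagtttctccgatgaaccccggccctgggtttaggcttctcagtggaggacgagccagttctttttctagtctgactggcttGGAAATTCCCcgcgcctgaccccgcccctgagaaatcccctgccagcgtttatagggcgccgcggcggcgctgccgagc
Nfkbie: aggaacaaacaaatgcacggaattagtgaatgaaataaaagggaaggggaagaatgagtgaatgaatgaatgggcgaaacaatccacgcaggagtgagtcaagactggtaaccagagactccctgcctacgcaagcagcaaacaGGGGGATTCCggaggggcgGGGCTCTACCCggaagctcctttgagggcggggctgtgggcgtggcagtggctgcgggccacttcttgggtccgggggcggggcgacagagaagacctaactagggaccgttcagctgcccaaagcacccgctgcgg
Tnfaip3: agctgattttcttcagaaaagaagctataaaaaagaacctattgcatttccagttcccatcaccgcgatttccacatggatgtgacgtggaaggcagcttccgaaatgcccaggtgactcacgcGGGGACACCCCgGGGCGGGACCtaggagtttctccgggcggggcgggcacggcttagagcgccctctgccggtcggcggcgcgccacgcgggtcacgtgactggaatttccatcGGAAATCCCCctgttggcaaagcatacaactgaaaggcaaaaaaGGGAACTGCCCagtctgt
Nfkbib: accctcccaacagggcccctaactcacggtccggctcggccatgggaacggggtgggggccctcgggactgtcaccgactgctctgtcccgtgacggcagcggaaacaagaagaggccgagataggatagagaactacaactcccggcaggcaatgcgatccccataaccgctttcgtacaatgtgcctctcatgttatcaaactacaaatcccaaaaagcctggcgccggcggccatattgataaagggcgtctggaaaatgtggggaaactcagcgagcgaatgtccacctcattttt

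This pattern is loose: it was found in 50.8% of 32851 mouse promoter windows and in 9 of the 10 member windows, with Nfkbib as the exception. A narrower form, GGG, then any 2 bases, then TTTCC, is contained in the first pattern and was held by 1.63% of all windows and by 6 of the 10 member windows. These 6 belong to 4 genes, Nfkb2, Rel, Nfkbia and Tnfaip3, and 2 of the 3 Nfkb2 windows overlap and share 1 match. Over genes, 512 of 27025 (1.89%) had the narrower form in any window. In Nfkbia it read GGGAATTTCC on the opposite strand, with its leftmost base 29 bases before the start. In the first Tnfaip3 window it read GGGGATTTCC on the opposite strand, 12 bases before the start. Nfkbie had no match to the narrower form and carried GGGGGATTCC 106 bases before its start. A match describes the letters and not a bound site, and Nfkb2 and Rel, which had the narrower form too, did not pass the test in exon counts. Rela was also above the scrambled value of its class in both pairs, barely so in the intron-rich one, and lacked the narrower form. The printed windows were chosen by the knockdown values, so a link between match and change was not tested.

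None of the 5 subunit genes passed in either direction, with edgeR adjusted p-values from 0.28 to 0.66, 0 of them at an unadjusted p under 0.05 and 0 called by DESeq2. Rela (19697; mm9 chr19:5637490-5648130, plus strand), which encodes the main activating subunit p65, was at 81.7 and 101 CPM with sh1137 and sh830, against 81.5 and 76.1 CPM in scrambled 1 and 2. The higher value was that of sh830 alone, and the intron-rich libraries were level, with log2 ratios of 0.00 between the intron-rich libraries and 0.41 between the intron-poor ones. The fitted log2 fold change of Rela was 0.21 ± 0.12 (edgeR adjusted p = 0.28).

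Nfkb1 (18033; mm9 chr3:135247619-135354511, minus strand) and Nfkb2 (18034; mm9 chr19:46379227-46386875, plus strand) encode long precursors that are cut to DNA-binding subunits and that act as inhibitors while uncut. Nfkb1 was at 128 and 163 CPM with sh1137 and sh830, against 152 and 160 CPM in scrambled 1 and 2, a log2 fold change of -0.11 ± 0.10 (edgeR adjusted p = 0.50). Nfkb2 was at 48.1 and 57.5 CPM with sh1137 and sh830, against 57.9 and 57.4 CPM in scrambled 1 and 2, a log2 fold change of -0.13 ± 0.10 (edgeR adjusted p = 0.42). In both genes sh1137 was the low library and the other 3 lay close together. The span of Nfkb2 also holds Snora19 and part of Psd on the opposite strand, and Psd was at 4.46 and 3.48 CPM with sh1137 and sh830, against 4.21 and 2.28 CPM in scrambled 1 and 2.

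Rel (19696; mm9 chr11:23641729-23670970, minus strand), which encodes c-Rel, a subunit of lymphoid and myeloid cells, was at 30.3 and 17.1 CPM with sh1137 and sh830, against 29.9 and 19.4 CPM in scrambled 1 and 2. Relb (19698; mm9 chr7:20191571-20214787, minus strand), the partner of the Nfkb2 product in the alternative pathway, was at 17.5 and 24.1 CPM with sh1137 and sh830, against 19.5 and 24.5 CPM in scrambled 1 and 2. Both genes followed the intron class of the library and not the hairpin, with Rel high and Relb low in the intron-rich pair. Their log2 fold changes with knockdown were -0.08 ± 0.11 for Rel and -0.09 ± 0.11 for Relb (edgeR adjusted p = 0.66 and 0.63).

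**Figure D3:**
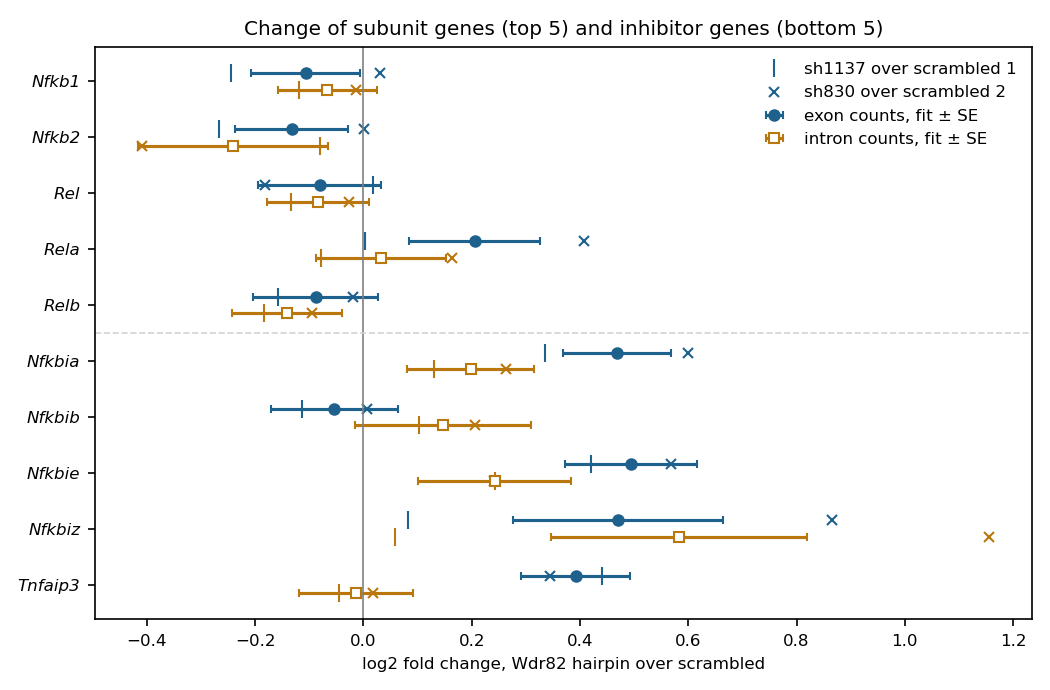
Log2 fold change of each gene, knockdown over scrambled, in exon counts (filled circles) and intron counts (open squares) with its SE, and the ratios within the intron-rich (bars) and intron-poor (crosses) pair of libraries. In exon counts 4 of the 5 inhibitor genes lie between 0.39 and 0.49 and the subunit genes between -0.13 and 0.21.

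The library term itself separated members in exon counts. Between the intron-rich libraries (sh1137 and scrambled 1) and the intron-poor ones (sh830 and scrambled 2), 4 of the 10 members differed at an adjusted p under 0.05 in edgeR, beside 44.0% of all tested genes (20.1% higher and 23.9% lower in the intron-rich libraries), so the share is close to the background. Rel was higher in the intron-rich libraries, by 0.72 ± 0.11 on the log2 scale (edgeR adjusted p = 0.0073). Lower in the intron-rich libraries were Nfkbia at -0.60 ± 0.10 (edgeR adjusted p = 0.0083), Tnfaip3 at -0.37 ± 0.10 (0.033) and Relb at -0.39 ± 0.11 (0.041). For Nfkbia the difference between library classes was larger in size than that with knockdown, and the cause of the class difference was not tested.

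Intron counts, which stand mostly for unspliced RNA, were compared in the same way with scaling factors of their own. None of the 10 members passed in edgeR, 1 of them (Nfkbiz) had an unadjusted p under 0.05 and DESeq2 called 0, beside 5.97% of 12405 tested genes that rose and 3.93% that fell (9.9% in all). Nfkbiz introns were at 63.0 and 129 CPM with sh1137 and sh830, against 60.5 and 58.0 CPM in scrambled 1 and 2. The groups did not overlap, but sh830 alone stood high. The log2 fold change was 0.58 ± 0.24 (edgeR adjusted p = 0.17), with 0.06 between the intron-rich libraries and 1.16 between the intron-poor ones, and without sh830 it was 0.08. Nfkbiz passed when scaled to exon library sizes (0.70, edgeR adjusted p = 0.010), a scaling that moved the median of all genes by 0.11, and when low-count genes were kept (0.56, edgeR adjusted p = 0.010).

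The log2 fold changes of Nfkbia, Nfkbie and Tnfaip3 were lower in introns than in exons, and the direct test given below called none of these differences. Nfkbia introns were at 17.1 and 54.9 CPM with sh1137 and sh830, against 15.6 and 45.8 CPM in scrambled 1 and 2, a log2 fold change of 0.20 ± 0.12 (edgeR adjusted p = 0.33). Tnfaip3 introns were at 24.5 and 72.2 CPM with sh1137 and sh830, against 25.3 and 71.3 CPM in scrambled 1 and 2, a log2 fold change of -0.01 ± 0.10 (edgeR adjusted p = 0.95). On this scale, set by intron library sizes, both genes were higher in the intron-poor libraries, and the groups overlapped. Nfkbie introns had a log2 fold change of 0.24 ± 0.14 and Nfkbib introns of 0.15 ± 0.16 (edgeR adjusted p = 0.32 and 0.61). Among the subunit genes the log2 fold changes in introns ran from -0.24 for Nfkb2 to 0.03 for Rela.

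Whether introns and exons of the same gene changed by different amounts was tested directly. In the fit with a term for each library 0 of 11772 genes passed and 0 of the 10 members, and edgeR's unadjusted p was under 0.05 for 49 genes in the positive and 19 in the negative direction. The class difference in intron level stays in the spread of this fit, which limits what it can call. Wdr82, with a difference of 1.56 on the log2 scale, had an edgeR adjusted p of 0.99995 here, against 4.7e-32 in the next fit. A fit that also allowed each library class its own intron level, chosen after seeing the data, called 3.65% of genes (2.19% up and 1.46% down) and again 0 members. Its lowest member value was that of Tnfaip3, where the intron change was below the exon change by -0.41 ± 0.15 on the log2 scale (edgeR adjusted p = 0.096). Nfkbia followed at -0.27 ± 0.13 (edgeR adjusted p = 0.29), and these 2 genes were the members with an unadjusted p under 0.05. This test therefore did not separate the intron changes of these genes from their exon changes.

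The members differed among themselves in how their intron counts varied between the library classes. Scaled to the exon library sizes, intron counts of the median gene were 3.02 times higher with sh1137 than with sh830 and 2.79 times higher in scrambled 1 than in scrambled 2 (12279 genes). Nfkbia introns gave a ratio of 0.928 with the hairpins and 0.964 in scrambled cells, and Tnfaip3 introns 1.01 with the hairpins and 1.00 in scrambled cells, so their intron counts were level where those of most genes were not. A share of 3.49% and 4.17% of genes had a smaller ratio than Nfkbia and Tnfaip3 with the hairpins, and 3.74% and 4.26% in scrambled cells.

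Nfkb2 had ratios of 1.47 with the hairpins and 1.11 in scrambled cells, Nfkbie 1.68 with the hairpins and 1.58 in scrambled cells, and Relb 2.03 with the hairpins and 2.04 in scrambled cells. Rela, Rel, Nfkb1 and Nfkbib lay between 2.74 and 3.57, near or above the median gene. The hairpin and scrambled ratios lay furthest apart for Nfkbiz, at 1.45 with the hairpins and 2.95 in scrambled cells, where sh830 stood high. The ratio of all genes grew with intron length, from 1.86 with the hairpins and 1.74 in scrambled cells under 5 kb to 4.65 and 4.35 over 100 kb. Nfkbia has 1660 bases of intron, Tnfaip3 9906 and Nfkb1 102219, and all 3 were below both medians of their own length class, as were Nfkb2, Nfkbie, Relb and Nfkbiz. For Tnfaip3 these medians were 2.65 with the hairpins and 2.46 in scrambled cells. These are descriptions of 4 libraries, and the cause of the class difference was not tested.

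**Figure D4:**
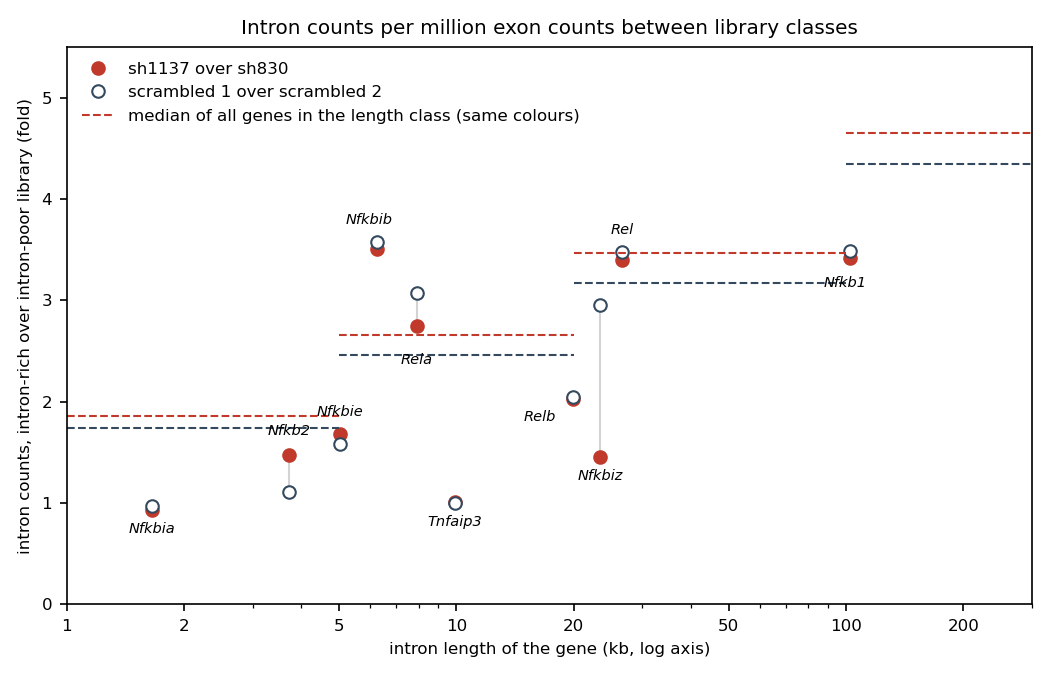
Ratio of intron counts, scaled to exon library sizes, in the intron-rich over the intron-poor library, against the intron length of each gene (log axis), for the hairpin pair (filled) and the scrambled pair (open), with medians of all genes in 4 length classes as dashed lines. Nfkbia and Tnfaip3 lie at about 1, Nfkb1, Rel and Nfkbib near 3.5, and the 2 pairs part for Nfkbiz.

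Several members were also rich in intron reads relative to their exons. Over Tnfaip3 the intron density was 24.0% and 18.9% of the exon density with sh1137 and sh830, against 30.3% and 22.6% in scrambled 1 and 2. The medians over all genes were 11.7% and 3.65% with sh1137 and sh830, against 10.0% and 3.47% in scrambled 1 and 2. Nfkbie stood at 21.9% and 12.0% with sh1137 and sh830, against 22.3% and 14.3% in scrambled 1 and 2, so it too was well above the median in the intron-poor libraries. Relb stood at 24.7% and 8.81% with sh1137 and sh830, against 22.6% and 8.83% in scrambled 1 and 2, and Rel and Nfkbiz were above the median in all 4 libraries as well. Nfkbia was at 9.53% and 6.18% with sh1137 and sh830, against 9.89% and 7.41% in scrambled 1 and 2. It was thus below the median in the intron-rich libraries and above it in the intron-poor ones. Nfkb1 and Rela were below the median in all 4 libraries. Nfkb1 stood at 8.41% and 1.93% with sh1137 and sh830, against 6.94% and 1.89% in scrambled 1 and 2. Nfkbib was above the median in all 4 libraries, and Nfkb2 was below it only in scrambled 1.

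The authors' annotation of non-gene regions holds 1 region within 50 kb of a member, named for the end of Nfkbia (mm9 chr12:56565000-56568499), which lies 21897 bases downstream of the gene. It had 133 and 113 counts with sh1137 and sh830, against 43 and 64 counts in scrambled 1 and 2. Both hairpin libraries were above both scrambled libraries. Its log2 fold change was 1.24 ± 0.38 (edgeR adjusted p = 0.081; 0.75 with the group term alone), beside a median of 1.37 over 1070 tested regions, of which 54.6% rose. The regions were chosen by the authors on a comparison of hairpin with vector libraries, so the direction is not independent evidence.

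Few of the other pathway genes passed the test. Of 56 listed receptors' adaptors, kinases, ubiquitin enzymes and further regulators, 55 were tested in exon counts, and 1 rose and 2 fell, 1.82% and 3.64% beside the 6.06% and 7.79% of all genes, with a median log2 fold change of 0.02. Tnip1, a ubiquitin-binding partner of the Tnfaip3 product, was at 96.7 and 99.3 CPM with sh1137 and sh830, against 70.3 and 78.5 CPM in scrambled 1 and 2. It rose by 0.40 ± 0.086 on the log2 scale (edgeR adjusted p = 0.037). Tnip3, a relative of Tnip1, was at 89.3 and 114 CPM with sh1137 and sh830, against 132 and 143 CPM in scrambled 1 and 2, and fell by 0.44 ± 0.097 (edgeR adjusted p = 0.038). Both Tnip genes had groups that did not overlap, in opposite directions. In DESeq2 Tnip3 passed (adjusted p = 0.0040) and Tnip1 did not (0.11).

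Commd1, which promotes the removal of Rela protein from chromatin, was at 13.8 and 32.0 CPM with sh1137 and sh830, against 21.2 and 41.2 CPM in scrambled 1 and 2, and fell by 0.48 ± 0.12 (edgeR adjusted p = 0.047). Its groups overlapped, with higher values in the intron-poor libraries, and within each intron class the hairpin library was the lower one. Its value turned to 0.031 without sh1137 and to 0.14 without scrambled 2, in fits whose intron classes are unbalanced. The IκB kinase genes were near 0 in log2 fold change, with -0.01 for Ikbkb, -0.17 for Chuk and 0.03 for Ikbkg (edgeR adjusted p = 0.96, 0.20 and 0.85). In intron counts Ikbke, which encodes an IκB kinase-related kinase, was at 267 and 237 CPM with sh1137 and sh830, against 203 and 170 CPM in scrambled 1 and 2, and rose by 0.44 ± 0.089 (edgeR adjusted p = 0.033; 0.054 in DESeq2). The intron counts of Fbxw11, a substrate receptor of the ligase that marks IκBs, were at 418 and 195 CPM with sh1137 and sh830, against 543 and 290 CPM in scrambled 1 and 2, and fell by 0.47 ± 0.098 (edgeR adjusted p = 0.034). The groups of Fbxw11 overlapped, though within each intron class the hairpin library was the lower one. Its value was 0.085 without scrambled 1, a fit with unbalanced intron classes. In exon counts edgeR called 0 pathway genes with the group term alone, and likewise 0 without sh1137, without sh830, without scrambled 1 or without scrambled 2.

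Genes known as NF-κB targets in macrophages were called in both directions. Of 50 listed, 44 were tested in exon counts, and 6 rose (13.6%, beside 6.06% of all genes) and 4 fell (9.09%, beside 7.79%), with a median log2 fold change of 0.11. This list and the pathway list were chosen with earlier results of these data known, so their shares are a description only. Cxcl3, a neutrophil-attracting chemokine, was at 7.07 and 4.93 CPM with sh1137 and sh830, against 0.44 and 0.43 CPM in scrambled 1 and 2, and rose by 3.76 ± 0.33 on the log2 scale (edgeR adjusted p = 0.0064). Ier3, an early response gene for cell survival, was at 70.3 and 85.8 CPM with sh1137 and sh830, against 33.9 and 30.3 CPM in scrambled 1 and 2, and rose by 1.28 ± 0.13 (edgeR adjusted p = 0.0090). Both had well separated groups. Cxcl3 stayed between 3.49 and 4.03 and Ier3 between 1.14 and 1.41 whichever library was left out.

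Csf1, the macrophage growth factor, was at 11.6 and 39.3 CPM with sh1137 and sh830, against 5.89 and 13.7 CPM in scrambled 1 and 2, and rose by 1.26 ± 0.17 (edgeR adjusted p = 0.015). Its groups overlapped, its highest value was in sh830, where fibroblast markers were also highest, and its log2 fold change was 0.24 without sh830. The part of these markers was not tested. The other 3 that rose were Cxcl1, Src and Ptgs2. Ccl2, a monocyte-attracting chemokine, was at 328 and 212 CPM with sh1137 and sh830, against 523 and 490 CPM in scrambled 1 and 2, and fell by 0.94 ± 0.15 (edgeR adjusted p = 0.020). Both hairpin libraries were below both scrambled ones for Ccl2 and for Cxcl10, an interferon-responsive chemokine at 2.29 and 2.70 CPM with sh1137 and sh830, against 4.40 and 7.63 CPM in scrambled 1 and 2.

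Cxcl10 fell by 1.22 ± 0.27 and Slfn2, a growth regulator of immune cells, by 0.41 ± 0.092 on the log2 scale (edgeR adjusted p = 0.039 and 0.040), and Plau was the remaining gene that fell. Slfn2 was at 119 and 180 CPM with sh1137 and sh830, against 148 and 254 CPM in scrambled 1 and 2, with overlapping groups. Within each intron class its hairpin library was the lower one. Its value was 0.039 without scrambled 2, a fit with unbalanced intron classes. The cytokine gene Tnf stood at a log2 fold change of 0.03 (edgeR adjusted p = 0.80). In intron counts 2 of 37 tested target genes rose (Cd83 and Cxcl1) and 2 fell (Ccl2 and Bcl2l1), 5.41% each way beside 5.97% and 3.93% of all genes, which is near the background. With the group term alone edgeR called 0 target genes, and leaving out 1 library gave 4 without sh1137, 2 without sh830, 0 without scrambled 1 and 0 without scrambled 2.

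**Figure D5:**
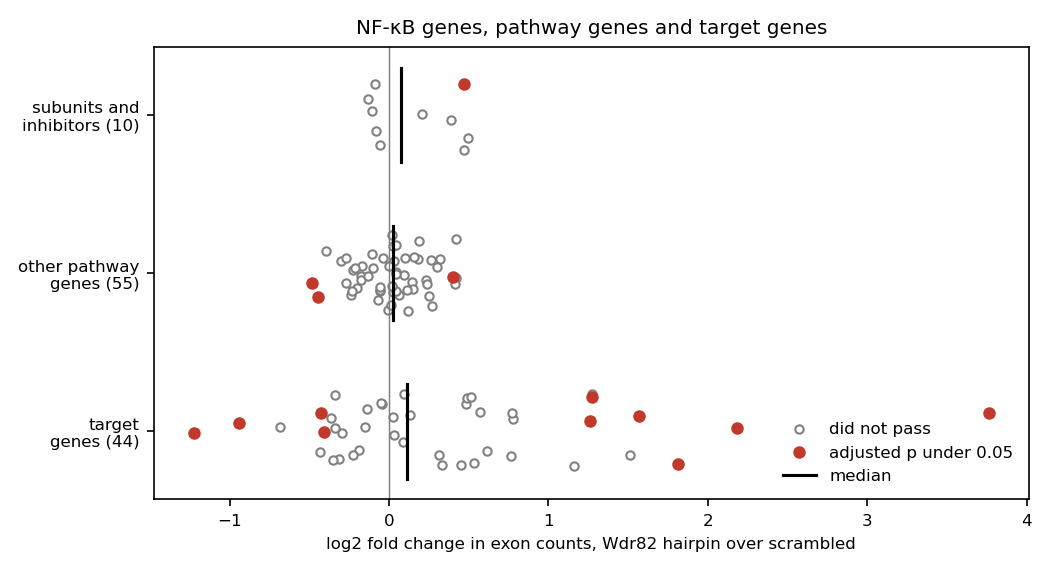
Log2 fold change in exon counts, knockdown over scrambled, for the 10 subunit and inhibitor genes, 55 other pathway genes and 44 target genes, with 1 point per gene, filled where the adjusted p was under 0.05, and the median of each list as a bar. The medians are at 0.08, 0.02 and 0.11, and the target genes spread widest, from -1.22 for Cxcl10 to 3.76 for Cxcl3.

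The mean profile of the 10 members over the libraries, as centred log2 CPM, was -0.02 and 0.18 with sh1137 and sh830, against -0.07 and -0.08 in scrambled 1 and 2, so sh830 alone stood above the rest. Of 8967 genes with a mean of at least 10 CPM, the nearest to this profile were Ahsa2, Rnf168 and Surf6, at Euclidean distances of 0.029, 0.038 and 0.042. Ahsa2 was at 19.3 and 22.0 CPM with sh1137 and sh830, against 18.9 and 18.7 CPM in scrambled 1 and 2. A profile of 4 libraries is easily matched, and these names are given as a description.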

How the data were processed

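Ribosomal RNA-depleted total RNA of untreated macrophages was sequenced, with 2 Wdr82 knockdown libraries (1 per hairpin) and 2 scrambled libraries. Raw counts of reads, as the authors deposited them, cover the exons of each gene and regions outside genes, and in separate tables the introns; the unit was read from the values. The authors' deposited annotation gives other values, the mm9 coordinates of genes and regions. Tools in the submitters' processing notes are SICER, TopHat 1.3.1 and Cuffdiff and Cufflinks 2.1.1, with the mm9 build. The counting tool and its strand setting are not given in the sources used here, so reads of overlapping or antisense genes could be shared.

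Counts of exons and regions were fitted together, and introns separately, in edgeR 4.0.16 (R 4.3.3) with filterByExpr, TMM factors, a group term and a library term for introns above 30% of counts. Quasi-likelihood F-tests were adjusted by Benjamini-Hochberg over all features, with a threshold of 0.05 for rose and fell. SE is the log2 fold change divided by the square root of F. The fit leaves 1 residual degree of freedom per gene, and the spread of each gene is drawn towards a trend over all features. CPM values use TMM-scaled library sizes and those per kb divide by exon length. DESeq2 1.42.0 and other settings were alternatives, and the scripts were tested on simulated data. With 2 libraries in each group, the smallest p of an exact two-sided permutation test is 0.333, and none was run. Members, lists and the library term were chosen with earlier results of these data known. Named genes were the 10 members, Wdr82, the 3 called genes of smallest p per list and direction, and the 3 genes of nearest profile; further list members were named after their values were seen. Of 21761 gene identifiers 21615 matched a symbol.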

Additional observations from a re-analysis of the deposited data

How the results depend on the processing

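Against 1 member, 3 pathway genes, 10 target genes and 1922 genes called in exon counts, the group term alone gave 0 of each, a library term crossed between the classes gave 0, 0, 0 and 24, and leaving out 1 library (with the group term alone) gave 0, 0, 0 to 4 and 14 to 206. RLE normalization called 1 pathway gene, DESeq2 called 16 target genes, and without a filter on low counts 2 members were called, Nfkbia and Nfkbie (0.48, edgeR adjusted p = 0.048). Of 1228 genes called in intron counts, the group term alone left 0 and leaving out 1 library 5 to 235; exon library sizes gave 1859 genes and 1 member, and no filter 2366 genes and 1 member. The fits with 3 libraries have fewer samples and carry no library term. Their intron classes are therefore unbalanced, and class differences enter their estimates. The cause of the other shifts was not tested.

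Signs turned in intron counts with exon library sizes for Nfkb1 (0.045), Rel (0.030) and Tnfaip3 (0.097), and with the group term alone for Tnfaip3 (0.0023). The intron against exon value of Rel was -0.034 without TMM factors and -0.011 with the class term. When each library was left out in turn, the exon values ranged from -0.27 to 0.060 for Nfkb1, -0.53 to 0.31 for Rel, -0.32 to 0.13 for Relb, -0.22 to 0.10 for Nfkbib, -1.17 to 0.14 for Commd1 and -0.78 to 0.039 for Slfn2. The intron values then ranged from -0.23 to 0.10 for Nfkb1, -0.90 to 0.49 for Nfkb2, -0.24 to 0.084 for Rel, -0.030 to 0.12 for Rela, -0.44 to 0.14 for Relb, -0.84 to 1.18 for Nfkbia, -0.019 to 0.34 for Nfkbib, -0.23 to 0.70 for Nfkbie, -0.98 to 0.91 for Tnfaip3 and -1.09 to 0.085 for Fbxw11. Of 90 alternatives for the members' exon values, 76 kept their sign and their side of the threshold, 7 changed sign, 6 lost the call and 1 gained one. The 6 lost calls were all of Nfkbia, the only member called in the main fit. The other members had no call to lose, so the 76 are no measure of how firm that call is.

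No paired analysis was possible because the knockdown libraries carry a hairpin name and no replicate number. The library term does set each hairpin library beside the scrambled library of its intron class, by a measured share and not by a label. With 2 libraries per group, 1 per intron class, this term takes out a class difference that both groups share. In the knockdown group sh1137 is the intron-rich and sh830 the intron-poor library. A difference between hairpins therefore cannot be told apart from a knockdown change that differs between the classes. Lone libraries in the reduced fits are assumed to vary like the rest.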
